A study of Mus musculus with 12 samples.

Results

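The cytosolic ribosomal protein genes encode the protein part of the ribosome. Members were taken by symbol: every gene of the deposited result table named Rpl or Rps with a number and at most 1 of the letters a, x or l, with Rplp0, Rplp1, Rplp2 and Rpsa. This gave 83 of the 55401 genes, 32 named for the small subunit (Rpsa included) and 51 for the large subunit. Their messenger RNA was measured by sequencing of polyadenylated RNA in 12 libraries of sorted splenic CD4 T cells. The mice were of the C57BL/6 strain and had carried Leishmania donovani, which lives inside macrophages, for 21 days. Of these, 6 libraries came from LAG-3+ CXCR5+ PD-1lo/int cells, called TLCP here, and 6 from CXCR5+ PD-1hi follicular helper cells (Tfh), which the series describes as mostly germinal centre cells. All 12 libraries came from infected animals, so none gives an uninfected level. No genetic modification is named in the labels. Of the 83 members, 78 passed the filter on low counts and were tested.

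As background, a ribosome is made of a small 40S subunit, which reads the mRNA, and a large 60S subunit, which joins amino acids. Most ribosomal proteins are made in equal numbers, 1 per ribosome, and the stalk proteins Rplp1 and Rplp2 are present in more than 1 copy. Their mRNAs begin with a C followed by a run of pyrimidines, the 5' terminal oligopyrimidine (TOP) tract, through which the kinase mTOR and the RNA-binding protein Larp1 control their translation and stability. T cells raise ribosome production when they are activated, and follicular helper cells are the CD4 T cells that support B cells in germinal centres.

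Each library held between 6939770 and 12688306 reads assigned to genes. The limit that a count of 0 allows (3 reads) lay between 0.236 and 0.432 CPM (counts scaled to a common library total). Every other CPM value given here was scaled by TMM instead, a factor per library that sets the bulk of all genes equal between libraries. The sort genes followed the labels: Lag3 was higher in TLCP (log2 difference 2.23) and Pdcd1, which encodes PD-1, lower (-3.12; adjusted p = 1.07e-06 and 7.65e-15, edgeR). The 11 T cell markers, which include the sort genes Lag3, Cxcr5 and Pdcd1, summed to 4030 to 5300 CPM in TLCP, against 7005 to 7773 CPM in Tfh, and 1 was higher and 8 lower in TLCP. Markers of B cells summed to 5450 to 24552 CPM in TLCP and 1245 to 2438 CPM in Tfh, with 10 of 12 higher in TLCP. Plasma cell markers summed to 2042 to 11796 CPM against 158 to 1260 CPM, with 6 of 7 tested higher. Basophil and mast cell markers summed to 26.1 to 96.2 CPM against 0.239 to 7.17 CPM, with 5 of 5 tested higher. None of the 5 tested myeloid and none of the 5 tested erythroid markers passed the test. The part of these other cells in the ribosomal protein gene values was not tested. The counts given below without TLCP replicates 4 and 5 keep TLCP libraries whose B cell sums lie above every Tfh library. Those without B cell and plasma cell genes keep any ribosomal protein mRNA that such cells brought. A ribosomal RNA-like gene, CT010467.1, took 12.9% to 24.1% of assigned counts in TLCP and 16.6% to 30.9% in Tfh. In bulk RNA, a different mix of cells and a different RNA level per cell cannot be told apart.

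The first question was whether the family as a whole differed between the populations. The members' counts made up 1.09% to 1.41% of the assigned counts in TLCP, with a median of 1.18%, and 0.912% to 1.24% in Tfh, with a median of 1.07%. How much reads left out as multimapping lowered these shares was not tested. The ranges overlapped, but within each replicate number the TLCP library was higher, by 0.19 ± 0.073 on the log2 scale (SD, n = 6 pairs). After scaling by TMM, which sets the bulk of all genes equal between libraries, the family summed to 11504 ± 725 CPM in TLCP, and to 11400 ± 1166 CPM in Tfh (SD, n = 6 each). The difference within a pair was then 0.017 ± 0.137, and TLCP was higher in 4 of 6 pairs. With ribosomal RNA genes left out of the total, the share was 1.58 ± 0.106% in TLCP and 1.58 ± 0.170% in Tfh, and TLCP was higher in 3 of 6 pairs. In the deposited TPM values, which are per length and include the ribosomal RNA-like gene, the sum was 18251 ± 2692 in TLCP and 14742 ± 1972 in Tfh, higher in 6 of 6 pairs. The size of the difference in the family sum therefore depended on the scaling, from near 0 to 0.31 on the log2 scale, and scaling by library totals alone shifted the median of all tested genes by 0.17 toward TLCP. The plot of summed levels shows this for 3 scalings.

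**Figure D1:**
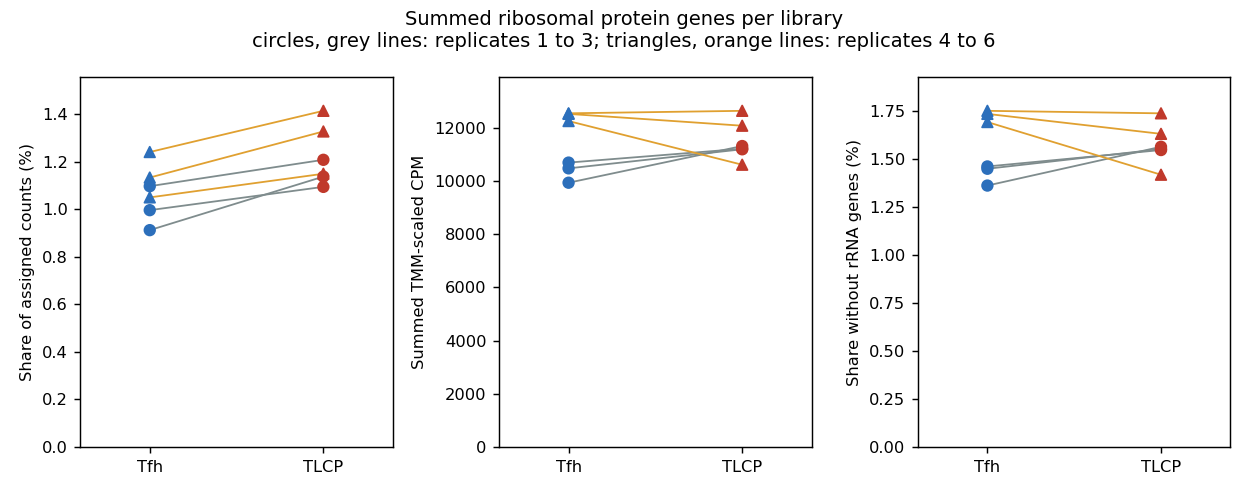
Summed ribosomal protein gene level in each library as a share of assigned counts (percent), as TMM-scaled CPM, and as a share without ribosomal RNA genes (percent), with lines joining libraries of the same replicate number. All 6 lines rise from Tfh to TLCP in the first panel, and 4 of 6 and 3 of 6 rise in the middle and right panels.

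Small-subunit and large-subunit members were in near-constant proportion. The ratio of small-subunit to large-subunit counts was 0.914 to 0.968 in TLCP, with a median of 0.927, and 0.883 to 0.935 in Tfh, with a median of 0.922. The ranges overlapped in part, between 0.914 and 0.935.

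Gene by gene, most of the family did not pass the test between the populations. Of the 78 tested members, 10 were higher in TLCP, 7 were lower and 61 did not pass (edgeR quasi-likelihood test, TMM scaling, Benjamini-Hochberg adjusted p under 0.05 over 12015 genes). Over all tested genes 16.8% were higher and 16.4% lower, so both of the members' shares were below the background. The median log2 fold change was 0.05 for the members and -0.0041 for all tested genes. The changes were small: those called higher ranged from 1.14-fold to 1.98-fold and those called lower from 1.15-fold to 1.36-fold. In all, 43 of 78 members had a log2 fold change between -0.2 and 0.2, and the median standard error of a member's log2 fold change was 0.0988. The direction of the calls depended on the scaling: by library totals alone 29 members were higher and 0 lower, against 26.7% and 7.43% of all genes, and all 10 members called higher and none of the 7 called lower kept their call. With the replicate number as a block, 16 members were higher and 8 lower, against 19.1% and 18% of all genes, and all 17 kept their call. Without immunoglobulin, B cell and plasma cell genes in the fit, 11 were higher and 7 lower, against 16.4% and 16.3% of all genes. Without TLCP replicates 4 and 5, which held the most B cell and plasma cell transcripts, 12 were higher and 5 lower, against 12.3% and 13.1%.

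**Figure D2:**
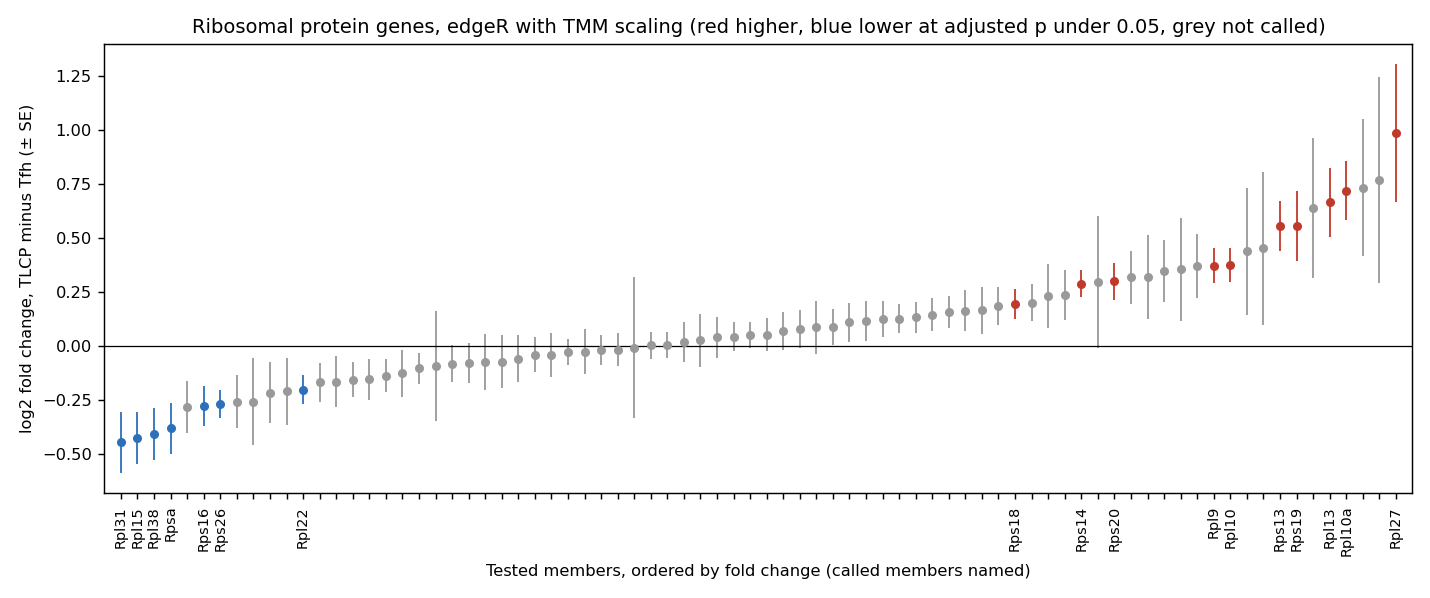
Log2 fold change (TLCP minus Tfh, TMM scaling) with its standard error for each of the 78 tested members, ordered by fold change and coloured by call, with names for the called members. The 10 members called higher and the 7 called lower lie among uncalled members with changes of the same size and larger errors.

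To remove the choice of scaling, each member was also compared with the family itself, by setting the summed family counts equal in every library. On this scale 9 members were higher and 7 lower, against 13% and 13.3% of all tested genes. They were the same members as before except Rps18, whose log2 difference was 0.17 on this scale (edgeR adjusted p = 0.155). Both of the members' shares again lay below the background. Of these 16 calls, that of Rps16 was lost when any 1 of 7 libraries was left out and that of Rpl27 when any 1 of 6 was. Without the filter on low counts 7 members were higher and 4 lower, against 1684 and 1442 of 26259 genes. A call against the family sum says nothing about the family's own level.

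Among small-subunit members, Rps13 had the strongest evidence of a higher level. Rps13, on chromosome 7 from 116331505 to 116334195 (GRCm38, minus strand), encodes a protein of the 40S subunit. Its lowest, median and highest levels were 26.0, 32.1 and 37.2 CPM in TLCP and 16.9, 22.2 and 25.1 CPM in Tfh. Every TLCP library was above every Tfh library, with a fold of 1.47 (log2 0.55, SE 0.116, edgeR adjusted p = 0.00097). Rps14, a platform protein and the gene linked to the anaemia of 5q deletion, reached 344, 381 and 441 CPM in TLCP and 298, 316 and 325 CPM in Tfh. Its groups did not overlap either, at a smaller fold of 1.22 (log2 0.29, SE 0.063, adjusted p = 0.0015). Groups that did not overlap were found for 6 members on the higher side (Rpl10, Rpl10a, Rpl13, Rpl9, Rps13 and Rps14) and for 1 on the lower side (Rpl31), against 8.3% and 8.86% of all tested genes.

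Rps19 and Rps20 encode proteins of the head of the 40S subunit. Rps19, the gene most often mutated in Diamond-Blackfan anaemia, had 43.3, 49.0 and 56.7 CPM in TLCP and 22.5, 32.4 and 47.9 CPM in Tfh. The Tfh libraries were spread over a range in which the highest, replicate 4, overlapped TLCP. The difference was 0.55 on the log2 scale (SE 0.162, edgeR adjusted p = 0.016). Rps20 had 73.8, 91.6 and 104 CPM in TLCP and 66.0, 73.7 and 83.8 CPM in Tfh, a difference of 0.30 (adjusted p = 0.0098) with overlapping groups. Rps18, also a head protein, differed by 0.19 (adjusted p = 0.040). Its call was lost when any 1 of 10 of the 12 libraries was left out, with adjusted p up to 0.107 without TLCP replicate 6, and without the filter on low counts (adjusted p = 0.103).

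On the lower side of the small subunit were Rps26, Rpsa and Rps16. Rps26, at the mRNA exit channel where it contacts bases upstream of the start codon, had 278, 321 and 335 CPM in TLCP and 332, 382 and 399 CPM in Tfh. The TLCP libraries were lower in 5 of 6 pairs, and the groups overlapped only at the edge (log2 -0.27, SE 0.064, edgeR adjusted p = 0.0029). Rpsa, known also as the laminin receptor precursor and mutated in congenital lack of a spleen, had 49.4, 57.4 and 59.7 CPM in TLCP and 54.8, 72.9 and 92.7 CPM in Tfh. The TLCP values lay close together, and the Tfh values reached well above them (log2 -0.38, SE 0.117, adjusted p = 0.018). Rps16, whose tail reaches the tRNA in the P site, had 36.2 to 41.3 CPM in TLCP, against 40.2 to 59.4 CPM in Tfh (log2 -0.28, adjusted p = 0.025). The Rps16 call was lost without TLCP replicate 3 (adjusted p = 0.051) and without Tfh replicate 4 (0.060).

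By position on the small subunit, the 5 members at the mRNA exit held 1 gene that was higher (Rps14) and 2 that were lower (Rps26 and Rpsa). The 3 at the mRNA entry (Rps2, Rps3 and Rps9) held none that passed in edgeR or DESeq2 and none with an unadjusted p under 0.05, with log2 differences from -0.08 to 0.09. By library totals alone the exit held 3 higher and 0 lower, and the entry 1 higher (Rps3).

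The member with the highest fold change, Rpl27, was also one of the least counted. Rpl27, a large-subunit gene on chromosome 11 from 101442298 to 101445529 (plus strand), had 2.86, 4.16 and 8.04 CPM in TLCP and 1.11, 2.39 and 3.75 CPM in Tfh. It was higher in 6 of 6 pairs, with overlapping groups and a fold of 1.98 (log2 0.98, SE 0.318, edgeR adjusted p = 0.022). Without TLCP replicate 6, its highest library, the difference was 0.76 and the call was lost (adjusted p = 0.077), as it was without Tfh replicate 3 (0.055).

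Rpl10a forms the L1 stalk, which moves spent tRNA out of the ribosome. Its levels were 16.4, 21.2 and 24.6 CPM in TLCP and 9.45, 12.3 and 15.4 CPM in Tfh. The groups did not overlap, and the fold of 1.65 had the smallest adjusted p of the family (log2 0.72, SE 0.138, edgeR adjusted p = 0.00046). Rpl13, another 60S protein, had 10.01, 12.3 and 15.4 CPM in TLCP and 6.07, 7.87 and 9.85 CPM in Tfh, again without overlap (log2 0.66, SE 0.160, adjusted p = 0.0032).

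Rpl10, which joins the large subunit late in its assembly and lies near the peptidyl transferase centre, is recurrently mutated in T cell leukaemia. It lies on the X chromosome from 74270812 to 74273135 (plus strand). Its levels were 47.7, 54.7 and 57.3 CPM in TLCP and 37.8, 40.8 and 44.8 CPM in Tfh, without overlap (log2 0.38, SE 0.079, edgeR adjusted p = 0.00097). Rpl9, which lies beside the site where translation factors bind, had 52.9, 61.5 and 68.9 CPM in TLCP and 43.2, 46.6 and 52.7 CPM in Tfh. These groups met without crossing (log2 0.37, SE 0.081, adjusted p = 0.0014). In the comparison of the populations, Rpl10, Rpl9, Rps13 and Rps14 were the 4 members that passed under each alternative run, those leaving out 1 library included.

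Lower large-subunit members were Rpl31, Rpl15, Rpl38 and Rpl22. Rpl31, a protein at the exit of the peptide tunnel, had 8.17, 8.61 and 9.12 CPM in TLCP and 9.94, 11.6 and 14.3 CPM in Tfh. Every TLCP library was below every Tfh library (log2 -0.45, SE 0.140, edgeR adjusted p = 0.019), though without Tfh replicate 5 the adjusted p was 0.052. The Rpl31 call was also lost with unstranded counts (log2 -0.32, adjusted p = 0.244) and without the filter on low counts (adjusted p = 0.074). Rpl15, a core 60S protein, had 22.6, 26.4 and 28.1 CPM in TLCP and 22.2, 36.1 and 40.0 CPM in Tfh. Tfh replicate 2, at 22.2 CPM, stood apart from the other Tfh libraries, which began at 35.3 CPM, and was the 1 Tfh library that did not lie above TLCP (log2 -0.43, adjusted p = 0.0098).

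Rpl38 is known from mice with the tail short mutation, in which the translation of Hox mRNAs is altered. It had 25.3, 27.7 and 35.9 CPM in TLCP and 29.1, 39.9 and 47.6 CPM in Tfh, lower in 6 of 6 pairs though the groups overlapped (log2 -0.41, SE 0.119, edgeR adjusted p = 0.012). Rpl22 is needed for the development of alpha-beta T cells but not for bulk translation. It had 228, 264 and 287 CPM in TLCP, against 268, 305 and 331 CPM in Tfh (log2 -0.20, SE 0.068, adjusted p = 0.028). The Rpl22 call was lost without TLCP replicate 3 (adjusted p = 0.059), TLCP replicate 5 (0.065), Tfh replicate 5 (0.066) or Tfh replicate 6 (0.059). Its paralog Rpl22l1, outside the symbol rule, had 71.1 ± 9.69 CPM in TLCP and 75.9 ± 7.81 CPM in Tfh (SD, n = 6) and did not pass (adjusted p = 0.469).

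**Figure D3:**
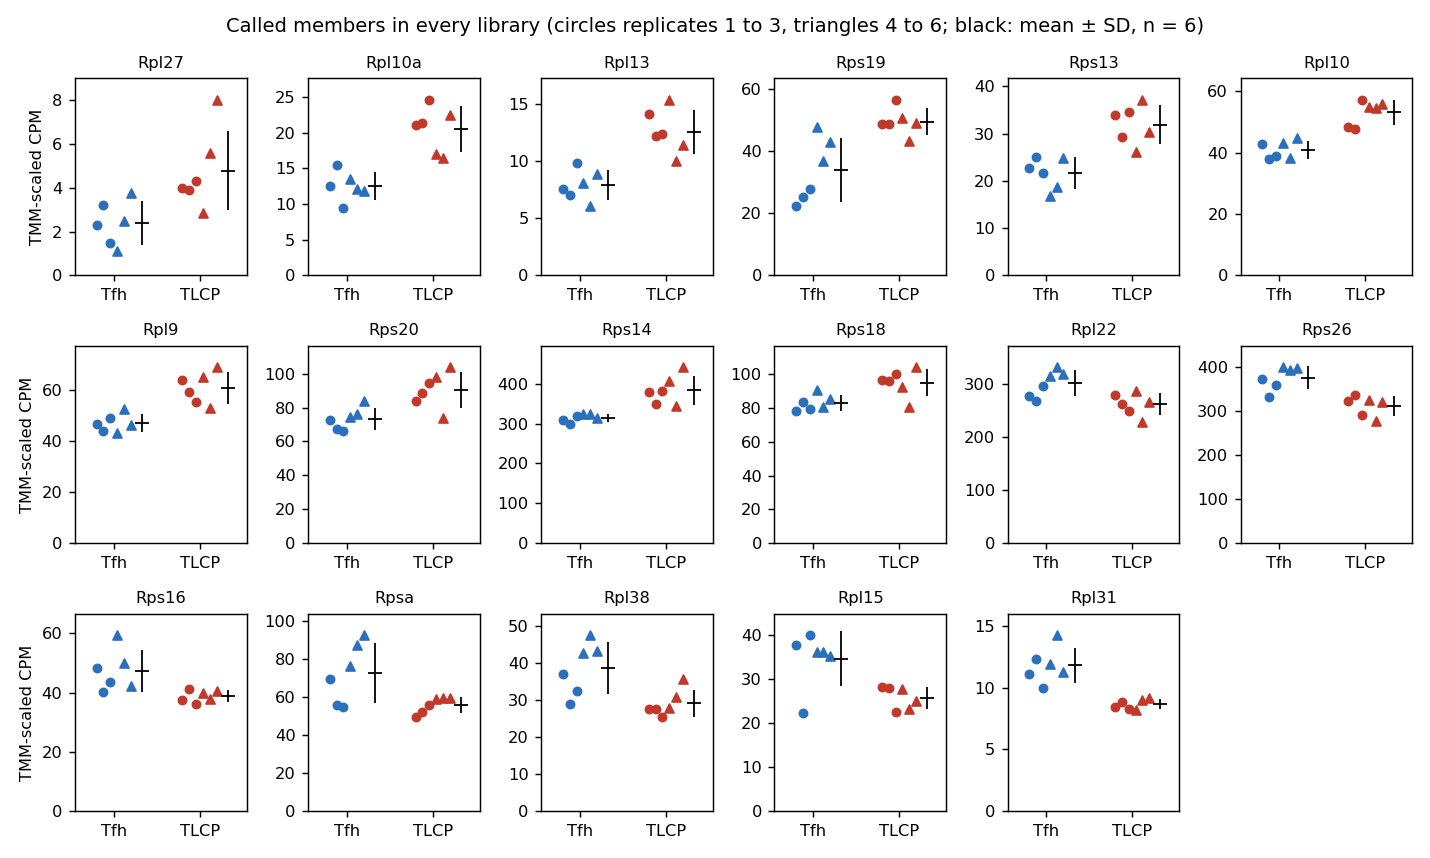
TMM-scaled CPM of the 17 members that passed the test, in each of the 12 libraries, with the mean and SD of each group (n = 6). Groups are apart for Rpl10a, Rpl13, Rps13, Rpl10, Rpl9, Rps14 and Rpl31, and touch or overlap for the other 10.

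Other functional parts of the large subunit held few calls or none. Of the 7 proteins around the peptide exit, Rpl31 was lower and the other 6 did not pass. The 3 stalk proteins, which recruit elongation factors, did not pass: Rplp0 had a log2 difference of -0.06, Rplp1 of -0.08 and Rplp2 of -0.26 (edgeR adjusted p = 0.127). None of the 3 passed in DESeq2 or had an unadjusted p under 0.05, and with the replicate block Rplp2 was called lower. Rpl5 and Rpl11 carry the 5S RNA into the ribosome and bind the p53 regulator Mdm2 when ribosome assembly fails. Rpl5 had 21.3 ± 1.88 CPM in TLCP and 18.2 ± 4.76 CPM in Tfh, and Rpl11 5.43 ± 1.71 and 3.25 ± 1.84 CPM (SD, n = 6), and neither passed in edgeR (adjusted p = 0.252 and 0.0828) or DESeq2. Of these genes 1 had an unadjusted p under 0.05, Rpl11 was called higher with the replicate block, and both were by library totals alone.

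Paralogs known mainly from other tissues were scarce. Rpl10l, a testis paralog of Rpl10, had 0 counts in all 12 libraries. Rpl3l, a striated muscle paralog of Rpl3, had at most 7 counts in a library, Rpl39l at most 6 and Rps4l at most 20. These 4 genes were not tested, nor was Rpl6l, an annotated processed pseudogene with at most 5. Rps27l, a paralog of Rps27 induced by p53, was the 1 gene tested of the 5 in the paralog list. It had 24.05 ± 4.21 CPM in TLCP, against 25.3 ± 2.81 CPM in Tfh (log2 -0.07, adjusted p = 0.685).

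Although the proteins are needed in equal numbers, the counted mRNA levels ranged widely. On the deposited TPM scale, which divides by length, the highest means over the 12 libraries included Rpl4 at 1567, Rps15 at 1475, Rpl32 at 1119 and Rpl8 at 834 TPM. The lowest of the tested members were Rpl24 at 2.54, Rps10 at 3.55, Rpl11 at 3.96, Rpl27 at 5.84 and Rpl28 at 5.93 TPM. The highest was 618 times the lowest, and the 10 highest members held 56% of the family's TPM. Of the genes named here, Rpl27 was called between the populations and the others were not. Rpl4 had 1258 to 1477 CPM in TLCP and 1141 to 1435 CPM in Tfh, and Rpl24 had 0.883 to 2.04 CPM in TLCP and 0.159 to 1.42 CPM in Tfh, so both genes' groups overlapped.

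Members also differed in how much of their mRNA sequence is found in other genes. Mammalian genomes carry many processed pseudogenes of ribosomal protein genes, and a read that matches several places equally is not assigned to a gene in these count files. For each member, the share of positions whose 50-base word also occurs in a transcript of another gene ranged from 0 to 98.6%, with a median of 56.0%. This share had a median of 32.8% in the 10 members with the highest TPM and 79.3% in the 10 tested members with the lowest. Across the 78 tested members, Spearman's rho between TPM and the shared percentage was -0.446, and -0.572 with 100-base words. This is a description across genes of the same libraries, which are not independent replicates. The read length is not stated in the labels. Multimapping reads, which lie outside the counts, came to 16.1% to 20.04% of reads in TLCP and 18.7% to 24.3% in Tfh, and how many of them came from ribosomal protein mRNA was not tested. TPM differences between members are therefore differences in uniquely assigned reads.

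**Figure D4:**
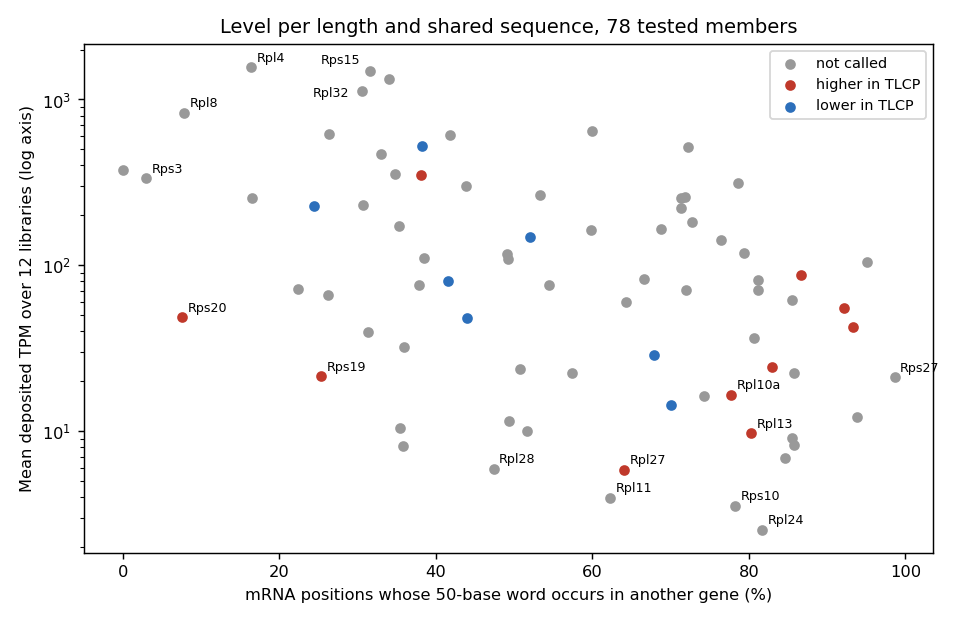
Mean deposited TPM over 12 libraries (log axis) against the percentage of mRNA positions shared with another gene, for the 78 tested members, coloured by call. Members with little shared sequence, such as Rpl8 and Rpl4, sit high, and Rpl24 and Rps10 sit low at 81.7% and 78.2% shared.

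The called members were spread over this range. Their median shared percentage was 64.1%, against 54.5% for the members that did not pass, and rho between the log2 fold change and the shared percentage was 0.167. Of the members called higher, Rpl9 and Rpl10 had 93.3% and 92.1% of positions shared, while Rps20 and Rps19 had 7.57% and 25.3%. Counts of 178 annotated pseudogenes whose sequence matches a single member were then added to the 62 members they resemble. This left 10 members higher and 6 lower, against 16.8% and 16.4% of all genes, with Rps16 the call that was lost. In a wider set, all annotated pseudogenes sharing sequence with a member, reads were 2.95% of the family's counts in TLCP and 2.96% in Tfh. The share held by the 178 added pseudogenes alone is not given here.

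The annotated starts of the members were searched for the TOP tract. Of the 83 members, 61 were matched by symbol to the RefSeq promoter table (GRCm38.p6). The annotated start itself opened a run of C and at least 4 more pyrimidines on the gene's strand in 14 of 61 members (22.95%), against 2.974% of 8943 tested genes matched. A run that began within 10 bases of the annotated start, and elsewhere than at the start itself was not preceded by another pyrimidine, was found in 35 members (57.38%), against 30.75%. The sequences below, of 4 called members, run from 15 bases before to 15 bases from the annotated start, with the pyrimidine run in capitals. They are shown because members called in opposite directions both carry the run.
Rpl15 (lower): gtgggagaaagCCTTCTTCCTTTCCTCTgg
Rpl38 (lower): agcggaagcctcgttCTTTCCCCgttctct
Rpl31 (lower): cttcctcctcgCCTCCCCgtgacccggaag
Rps18 (higher): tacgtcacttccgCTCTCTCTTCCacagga

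Rpl15 was read from chr14:18270972-18271001 (minus strand), Rpl38 from chr11:114668565-114668594 (plus strand), Rpl31 from chr1:39367836-39367865 (plus strand) and Rps18 from chr17:33955651-33955680 (minus strand). The run within 10 bases was found in 4 of the 7 members called lower and in 3 of the 8 called higher that were matched. Rps26 and Rpsa, called lower, and Rpl27, called higher, were not counted, since the pyrimidine run near their starts begins with a T. A start annotated a few bases from the true one moves the tract out of this window, so no run says only that these letters are not there. In the 300 bases around the start, on either strand, CCGGAAG (the ETS core) was present in 40.98% of members and 22.07% of tested genes. AANATGGC (the YY1 core) was present in 18.03% and 10.73%, GGGCGG (the GC box) in 59.02% and 68.96%, and TATAAA in 11.48% and 8.454%. CCGGAAG and AANATGGC share no full match, and a match is no sign that a factor binds.

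Other genes of the pathway, from lists, were read from the same fit, in which 16.8% of all tested genes were higher and 16.4% lower. By library totals alone these shares were 26.7% and 7.43%. Ribosomal genes outside the symbol rule held no call among 8 tested, in edgeR or DESeq2, and none at an unadjusted p under 0.05. By library totals alone 2 of them, Rack1 and Rps3a1, were higher. Among them Fau, which encodes a ubiquitin-like protein fused to a 40S protein, differed by 0.32 (edgeR adjusted p = 0.209) and Rpl7l1 by -0.16 (0.160). Of 20 elongation factors and other TOP mRNAs, 3 were higher and 1 was lower, with a median of -0.02. Hnrnpa1, a splicing protein encoded by a TOP mRNA, had 71.0, 85.8 and 94.9 CPM in TLCP and 37.2, 45.2 and 72.3 CPM in Tfh, with 1 Tfh library inside the TLCP range (log2 0.81, SE 0.148, adjusted p = 0.00069). Nap1l1, a histone chaperone, differed by 0.21 (adjusted p = 0.019, and 0.058 without TLCP replicate 6). Eef1a1 and Eef2, the main elongation factors, differed by -0.0094 and 0.07 and did not pass. By totals alone 4 of the 20 were higher and 0 lower, and without TLCP replicates 4 and 5 Hnrnpa1 was the 1 call.

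Host genes of small nucleolar RNAs are noncoding or little translated genes whose RNAs, like ribosomal protein mRNAs, begin with a TOP tract, and whose introns yield the guides of ribosomal RNA modification. Of 10 tested, 5 were higher in TLCP and 1 was lower, with a median of 0.41. Zfas1 had 23.5, 28.8 and 29.6 CPM in TLCP and 16.5, 18.6 and 21.3 CPM in Tfh, without overlap (log2 0.57, SE 0.098, edgeR adjusted p = 0.00014). Snhg1 had 44.3, 49.6 and 59.7 CPM in TLCP and 27.3, 35.8 and 37.9 CPM in Tfh, also without overlap (log2 0.53, adjusted p = 0.00019). Gas5, the best-known TOP host gene, differed by 0.28 (adjusted p = 0.0097). Snhg8 went the other way, at 17.2 ± 2.96 CPM in TLCP, against 23.7 ± 2.75 CPM in Tfh (log2 -0.46, adjusted p = 0.0074). By totals alone 8 were higher and 0 lower, so the call on Snhg8 depended on the scaling, and without TLCP replicates 4 and 5 the counts were 6 and 1. The list's difference from the ribosomal protein genes was not tested.

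Among regulators of TOP mRNAs, Larp1 had the smallest adjusted p of all listed pathway genes and members. Of 16 genes of mTOR signalling and TOP control, 2 were higher and 3 lower, with a median of -0.02. Larp1, which binds TOP mRNAs and holds them untranslated when mTOR is inactive, had 184, 206 and 225 CPM in TLCP and 107, 120 and 131 CPM in Tfh. The groups were well apart, and the log2 difference of 0.79 (SE 0.065, edgeR adjusted p = 1.92e-08) passed under each alternative run. Mlst8, a subunit of the mTOR complexes, was higher by 0.60 (adjusted p = 0.0097). The 3 lower genes were Eif4e, the cap-binding protein, with a log2 difference of -0.30 (adjusted p = 0.0036), Pdcd4, an inhibitor of translation initiation, with -0.47 (0.0058), and Eif4ebp2, which binds Eif4e, with -0.15 (0.036). None of these 3 passed by totals alone, where 5 of the 16 genes were higher and 0 lower. Mtor itself differed by -0.02 and did not pass. Of 8 dedicated chaperones and assembly factors of ribosomal proteins none passed in edgeR, with Ltv1 at 0.23 (adjusted p = 0.064) and Bccip at -0.19 (0.084), and 2 of the 8 had an unadjusted p under 0.05. DESeq2 called 1 of them, Ltv1, higher.

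The libraries with replicate numbers 1 to 3 and those numbered 4 to 6 differed in this family. In Tfh the summed level was 9932 to 10688 CPM in replicates 1 to 3 and 12249 to 12541 CPM in replicates 4 to 6, and in TLCP it was 11188 to 11310.5 and 10608 to 12634 CPM. The Tfh sets were apart and the TLCP sets were not. No label names a batch, so whether the numbers mark one is not known. The ribosomal RNA-like gene held 16.6% to 25.5% and 22.8% to 30.9% of assigned counts in the Tfh sets, and 17.7% to 24.1% and 12.9% to 13.7% in the TLCP sets. Its part in the split was not tested. Replicates 1 to 3 alone gave 20 members higher and 0 lower, against 14.1% and 13.5% of all genes, and replicates 4 to 6 alone gave 5 and 12, against 11.8% and 10.9%. Of the 17 called members, 9 of the 10 higher and none of the 7 lower passed in the first set, and 4 and 5 in the second. Scaled to the family sum the first set gave 6 higher and 7 lower, against 9.78% and 21.8% of all genes, and the second 6 and 3, against 13.1% and 6.42%.

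The difference between the sets was tested as the product of population and replicate set. No member passed in edgeR (smallest adjusted p = 0.134), and 0% of 12015 genes passed, while 22 members and 9.28% of all genes had an unadjusted p under 0.05. Of these 22 members, 20 had a difference lower in replicates 4 to 6, as did 58 of all 78. DESeq2 called 7 members among 99 genes: Rplp0, Rplp2, Rpl32, Rps15, Rps24 and Rps9 were lower in the second set, and 1 member was higher. DESeq2's own filter gave an adjusted p to 834 genes, 24 of them members, and of the 834 genes 8.87% were higher and 3% lower in the second set. In edgeR 5 members were called lower without the filter on low counts, against 36 of all 26259 genes. With the replicate block 1 member was called lower, against 16 of 12015 genes. Without TLCP replicate 4 the count was 4 members, against 20 of 12158 genes. The test of the product therefore depended on the tool, the filter, the pairing and 1 library.

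Members that show the split, named after their values were seen, included the stalk genes. Rplp0 had 346 to 371 CPM in Tfh replicates 1 to 3 and 505 to 527 CPM in Tfh replicates 4 to 6, with TLCP between, at 396 to 419 and 389 to 463 CPM. Rplp2 had 169 to 195 and 235 to 299 CPM in the Tfh sets and 178 to 188 and 174 to 203 CPM in the TLCP sets. In both genes the TLCP sets overlapped and the Tfh sets did not, and the TLCP mean lay above the Tfh mean in the first set and below it in the second. Rps19 had 22.5 to 27.96 CPM and then 36.8 to 47.9 CPM in Tfh, and 48.8 to 56.7 CPM and then 43.3 to 50.8 CPM in TLCP, so that the populations were apart in the first set and overlapped in the second. For Rpl10a the TLCP libraries stayed above Tfh in both sets.

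**Figure D5:**
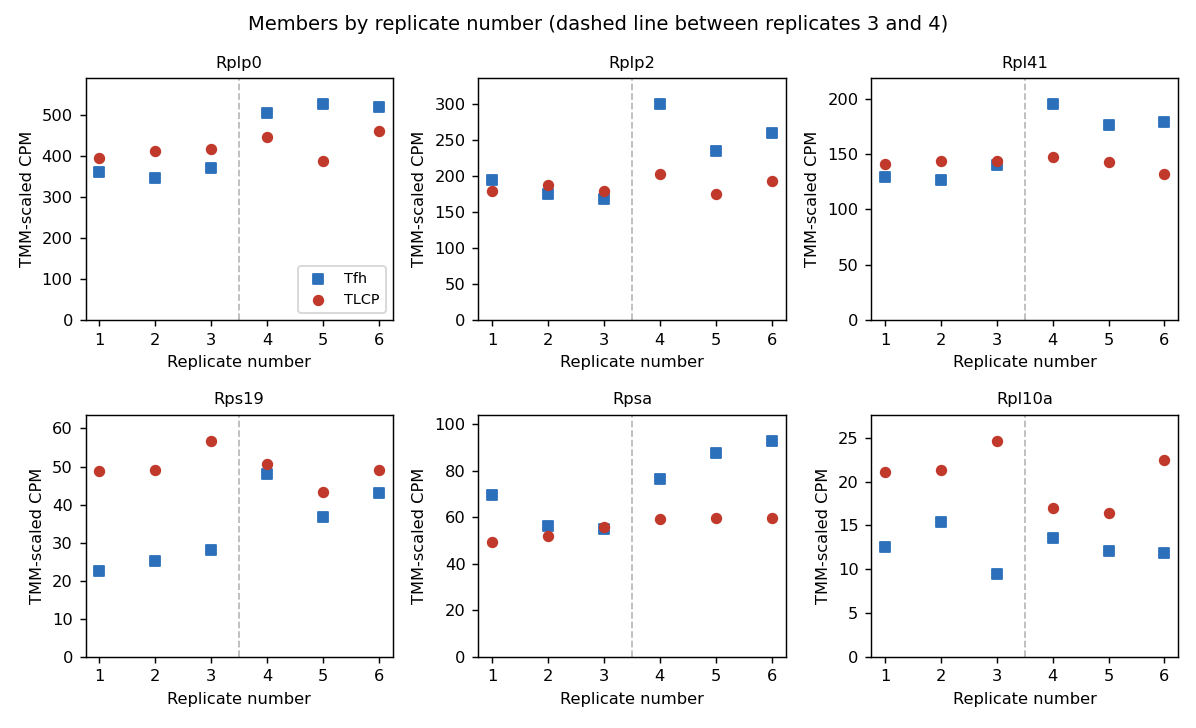
TMM-scaled CPM of 6 members by replicate number in Tfh (squares) and TLCP (circles), with a dashed line between replicates 3 and 4. Tfh values of Rplp0, Rplp2, Rpl41, Rps19 and Rpsa are higher right of the line, while those of Rpl10a are 9.45 to 15.4 CPM throughout.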

How the data were processed

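Splenic CD4 T cells, per the labels, were isolated magnetically before flow sorting, RNA was extracted with TRIzol and columns, and poly(A)-selected libraries were made with a KAPA kit. The submitters' processing notes name STAR 2.7.1a, bcl2fastq 2.20, DESeq2 1.30.1 and the GRCm38 build. The annotation release and read length are not stated there. The authors deposited raw read counts per gene (STAR layout), of which the column on the gene's strand was used. The 4 classes without a gene, among them multimapping reads, held 44.9% to 56.4% of reads and stayed out of library sizes and tests. The authors' deposited table also holds log2 fold changes, p-values and a normalized signal, from which 100% of values gave back whole reads (tolerance 0.01) equal to the counts. With those reads the test called 3983 genes. TPM values were also deposited by the authors and were used for levels per length. They were also the input of limma on log2(TPM + 1) and log2(TPM + 0.1). The larger constant shrinks changes of low genes more, as for Rpl24, at log2 differences of 0.85 and 1.38.

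The tests were run with edgeR 4.0.16 in R 4.3.3 (filterByExpr, TMM, quasi-likelihood F-test with robust dispersion, 2-sided, Benjamini-Hochberg over 12015 genes, threshold 0.05). The model held the 2 populations, 6 libraries each. A second fit scaled libraries to the family sum, and another tested the product of population and replicate set. The standard error (SE) of a log2 fold change was taken as its size over the root of the F statistic. DESeq2 1.42.0 and limma 3.58.1 were alternatives, with other scalings, filters, unstranded counts, subsets of replicates and each library left out. The fits were tested on simulated data. Named genes were the members that passed, the 5 with the highest and 5 with the lowest TPM, the paralogs, and 2 genes with the smallest p per pathway list; further list genes are named for their role, and some members that this rule names are not reported here. The members and lists were chosen with earlier results of these data known.

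Libraries carry numbers 1 to 6 in both populations. Deviations from group means correlated at 0.16 to 0.362 between libraries of the same number, and 10 of 12 correlated best with their own number. The numbers were therefore taken to pair the samples in the within-pair differences and in the replicate block. The main test left the pairing out, so its p-values and standard errors are those of an unpaired comparison. The labels do not say which animal each library came from, so p-values measure the spread between libraries. Within a group, each pair of libraries differed beyond sampling noise (chi-square per degree of freedom at least 6.6). Floors cover counting error only. Shared words were counted in GENCODE M21 transcripts, in which 98.1% of gene spans equal those of the files.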

Additional observations from a re-analysis of the deposited data

Results flagged for a closer look

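Within-group gaps were examined for 62 group values of named members and family measures. Of these, 3 stood out, about as many as the 1 in 20 that chance gives. Rpl15 in Tfh replicate 2 was 22.2 CPM, and the nearest Tfh library had 35.3 CPM. The low-count gene Rpl28, a 60S protein, was 6.14 CPM in Tfh replicate 6, with the nearest at 3.83 CPM. The ratio of small-subunit to large-subunit counts in TLCP replicate 6 was 0.968, with the nearest at 0.934.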

How the results depend on the processing

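Low counts limit the weakest members: Rpl24, Rps10, Rpl11, Rpl27 and Rpl28 had a mean under 6 TPM. The alternatives added after seeing the data were recovered reads, added pseudogene copies, the median-ratio factor over the members, and leaving out TLCP replicates 4 and 5. With totals alone, 29 members were higher and 0 lower (median 0.23, family sum 0.19), against 3207 and 893 of 12015 genes (median 0.17). On log2(TPM + 1) the counts were 33 and 0 (median 0.34, family sum 0.31), against 3180 and 473 of 12753 genes (median 0.25). On log2(TPM + 0.1) they were 32 and 0 (median 0.34), against 3115 and 463 of 12753 genes (median 0.28). With the replicate block 16 were higher. Replicates 1 to 3 gave 20 and 0, and replicates 4 to 6 gave 5 and 12. Leaving out 1 library gave 9 to 13 higher and 5 to 9 lower, a median of 0.012 to 0.076 and a family sum of -0.026 to 0.039. Relative to the family sum, the lower count of 7 became 4 without the filter, 3 in replicates 4 to 6 and 4 without TLCP replicates 4 and 5; leaving out 1 library gave 8 to 10 higher and 5 to 7 lower. There, Rps16 lost its call without any 1 of 7 libraries and Rpl27 without any 1 of 6. The product of population and replicate set gave 5 lower members without the filter, against 36 of 26259 genes. DESeq2 gave 6 lower and 1 higher, against 25 and 74 of 834 genes. The replicate block gave 1 lower, against 16 of 12015 genes. Leaving out 1 library gave 0 to 4 lower, the 4 without TLCP replicate 4, against 20 of 12158 genes there. The block changed no call of the 17 members from passing to not passing.

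Signs reversed for these log2 differences. On log2(TPM + 1) and log2(TPM + 0.1) Rpl22 was 0.085 and 0.086, Rps16 0.016 and 0.016, Rps26 0.019 and 0.019, Bccip 0.089 and 0.091, Rps15 0.28 and 0.28, Rpl32 0.26 and 0.27, Rps27l 0.20 and 0.20, and Rpl7l1 0.13 and 0.13. By totals alone Rps15 was 0.15, Rpl32 0.14, Rps27l 0.11 and Rpl7l1 0.025. In replicates 1 to 3 Rps15 was 0.20 and Rpl32 0.17, and in replicates 4 to 6 Rpl4 was -0.033 and Rpl8 -0.053. With 1 library left out Rps15 ran from -0.088 to 0.040, Rpl32 from -0.11 to 0.013 and Rps27l from -0.14 to 0.0036. The cause was not tested.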
